A study of Mus musculus with 10 samples.

Results

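The genes described here are 35 targets and partners of p53, whose RNA was measured in mouse TH2 cells. These are the helper T cells of the allergic and anti-worm response, known for the cytokines IL-4, IL-5 and IL-13. Members were taken as the rows of the count table whose Ensembl IDs carry 35 fixed symbols, out of 49671 rows, and all 35 were found. The symbols were chosen by knowledge of the pathway with the diet difference in CPM of these same libraries already in view, so the diet values of the members are a description and support nothing by themselves. The cells came from C57BL/6 mice of wild-type genotype, second-generation offspring in both arms. Regular mice ate chow that held 400 IU/kg of vitamin D3, whereas deficient mice were bred without UV light on a diet lacking vitamin D metabolites. Naive CD4+ T cells were driven towards the TH2 state in vitro and collected at day 5. There were 3 regular libraries (2 in batch 1, 1 in batch 2) and 7 deficient libraries (5 in batch 1, 2 in batch 2). The labels tie no library to a separate mouse, so p-values measure only the spread between these libraries, which may be technical.

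The protein p53, encoded by Trp53, is a transcription factor held low by the ubiquitin ligase MDM2 and its partner MDM4. DNA damage and other stresses release it from them, largely at the protein level. Free p53 binds paired decamers in DNA and raises genes that stop the cell cycle, repair DNA, kill the cell or, as with Mdm2 itself, shut p53 down again. In lymphocytes this programme limits clones that divide with damaged DNA. RNA levels of Trp53 and of its targets do not report p53 protein, which was not measured here.

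The p53 binding consensus was looked for in promoter sequences to show which members carry it close to a start site. RefSeq promoter windows (GRCm38.p6, 250 bases before to 50 after a start) were matched by symbol for 29 of the 35 members, in 38 windows. The p53 consensus decamer was searched without mismatch, and since it is palindromic both strands are covered at once. It occurred in 14 of 38 member windows (36.8%) against 8.36% of all 32851 windows. A pair of decamers at most 1 base apart, with at most 2 mismatches in 20 bases outside the fixed C and G of each decamer, occurred in 5 of 38 member windows (13.2%) against 0.682% of all windows. The share was similar in small lists described further on, 2 of 16 windows (12.5%) of genes repressed through the DREAM complex and 1 of 7 (14.3%) of other CDK inhibitors and p53 relatives, and 2 of 37 (5.41%) for other p53 targets. A matched pair can contain a matched decamer. These matches are letters in a window and not measured binding, and a window without one says nothing on sites farther away. All 5 members with such a pair are shown, along with Bax, 1 of the 2 other p53 targets that had one. The other of these targets, Zfp365, matched at 18 of 20 bases, centred at -54, and is not printed. The 5 members include the largest rise among the arrest genes, the most abundant member and the steepest fall. Capitals mark the paired decamers, in the direction of transcription, and for Bax also the 1 base between them.
Cdkn1a (chr17:29090908-29090967, plus strand): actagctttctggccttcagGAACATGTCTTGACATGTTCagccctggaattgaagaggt
Ccng1 (chr11:40755442-40755501, minus strand): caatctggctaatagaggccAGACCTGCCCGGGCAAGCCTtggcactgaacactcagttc
Rps27l (chr9:66946276-66946335, plus strand): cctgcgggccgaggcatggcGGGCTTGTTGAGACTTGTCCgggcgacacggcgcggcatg
Gtse1 (chr15:85859945-85859964, plus strand): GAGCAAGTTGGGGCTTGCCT
Ckap2 (chr8:22185983-22186042, minus strand): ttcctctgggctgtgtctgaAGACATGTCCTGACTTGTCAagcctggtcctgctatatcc
Bax (chr7:45467059-45467119, minus strand): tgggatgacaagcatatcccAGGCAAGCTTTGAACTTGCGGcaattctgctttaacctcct
The pairs of Cdkn1a, Ccng1, Rps27l and Gtse1 matched the consensus at 19 of 20 bases, and those of Ckap2 and Bax at 18. They were centred at -42, -186, -108, 8, -194 and -191 bases from the annotated start, in the order printed. Cdkn1a has 2 RefSeq windows, and the pair lies in the upstream one. For Gtse1 the site alone is shown, since it runs past the start, and a second pair overlapped it.

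Library totals ran from 5800698 to 6462146 counts in the regular group and from 7029207 to 13433276 in the deficient group. Levels are given as CPM, the counts of a gene per 1000000 counts of its library. Markers of other lymphocytes differed between libraries, B cell markers within both groups. The 8 B cell markers summed to 18.8, 16.2 and 106 CPM in regular libraries 1 to 3, to 56.5 to 84.4 CPM in deficient libraries 1 to 4 and to 294 to 331 CPM in deficient libraries 5 to 7. Regular library 3 thus lay above deficient libraries 1 to 4. Of the 8 B cell markers 2 were higher in the diet comparison (Ighm and Cd79a) and 0 lower, beside 29.4% and 28.6% of all genes tested. The other 6 did not pass, and among them Ebf1 had a log2 fold change of -1.13. The 8 CD8 T and NK cell markers summed to 11.1 to 25.7 CPM in regular libraries, 45.0 to 64.0 CPM in deficient libraries 1 to 4 and 148 to 189 CPM in deficient libraries 5 to 7. Of the 10 helper T cell markers 6 were lower and 2 higher, where 28.6% and 29.4% of all genes tested were, and the list summed to 1872 to 1921 CPM in regular and 1327 to 1520.3 CPM in deficient libraries. Of the 8 CD8 T and NK cell markers 7 were tested, and 4 were higher and 0 lower, beside the same shares of all genes. Klra4 was at 0 in all regular libraries. Ncr1 (log2 fold change -0.86), Klrb1c (0.82) and Eomes (0.95) did not pass. The 8 myeloid markers summed to 1.03 to 2.94 CPM in regular and 3.99 to 10.7 CPM in deficient libraries. The largest part of that sum was Fcer1g (means 1.01 and 5.00 CPM). Of the 8 myeloid markers 2 were tested, and 2 were higher and 0 lower, beside the same shares of all genes. They were Fcer1g (log2 fold change 2.26) and Adgre1 (1.44). The other 6 were too low for the test, with S100a8 at 0 counts in the regular and 1 in the deficient group. In bulk RNA, fewer cells of a type and less RNA per cell cannot be told apart, and the part of other cells in the results below was not tested. Deficient libraries 1 and 3 held Xist RNA (657 and 733 CPM), which no other library had above 0.345 CPM.

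Of the 35 members, 33 had enough counts for edgeR's quasi-likelihood test across 13699 genes with batch as a term, and 28 were higher and 4 lower in deficient cells (Benjamini-Hochberg adjusted p below 0.05). Over all genes tested 29.4% were higher and 28.6% lower, together 58.0%. Their median log2 fold change was 0.93, beside 0.02 over all genes tested. The groups did not overlap in CPM for 28 members with every deficient library above every regular one, and for 4 with every one below. Of all genes tested, 29.4% and 21.4% did so. With at least a 2-fold difference, 16 members were higher and 1 lower, beside 10.3% and 8.71% of all genes. The members were chosen with this contrast in view, so nothing is read from these counts. Without deficient libraries 5 to 7 the test called 27 members higher and 4 lower, where 50.5% of all genes called were higher. Within batch 1 the calls were 26 and 4, where 51.2% of all genes called were higher. Among libraries without Xist RNA they were 29 and 4, where 51.2% of all genes called were higher. Batch 2 has a single regular library, so no count of member calls is given for it here. Nothing is read from these counts either, since the choice of members used the same libraries.

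**Figure D1:**
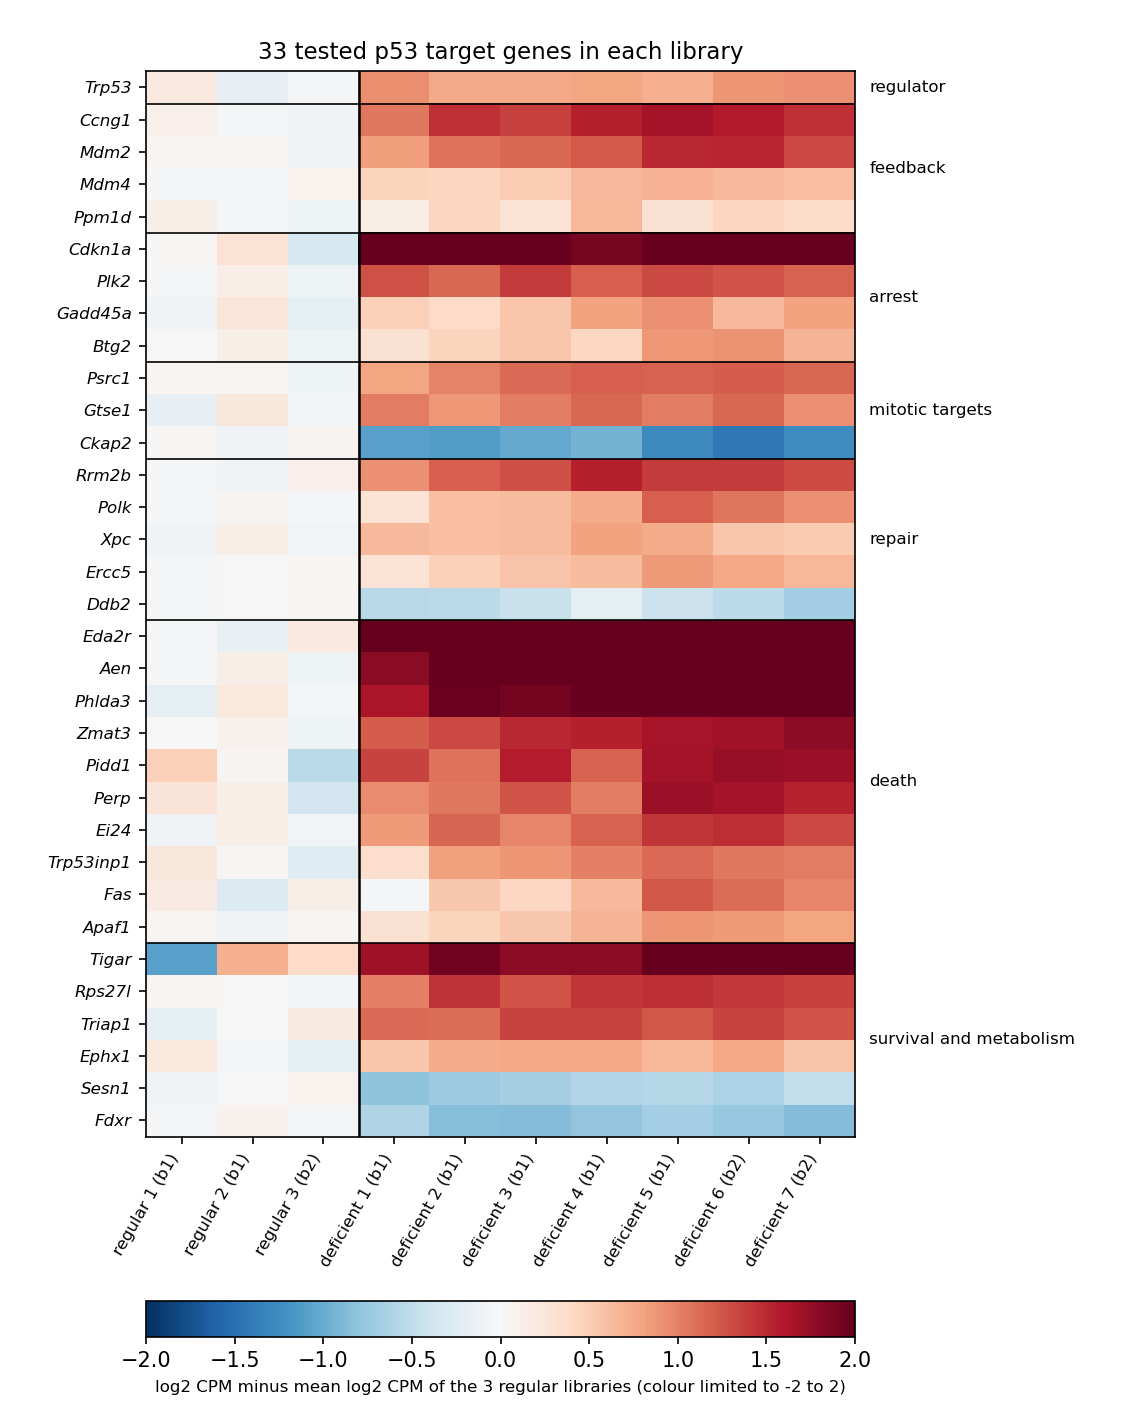
Colour gives log2 CPM of each tested member (rows, by branch) in each library (columns, with the batch in brackets) minus the mean of the 3 regular libraries, limited to -2 to 2. Ckap2, Ddb2, Sesn1 and Fdxr are the rows that are lower in all 7 deficient libraries, and Tigar shows regular library 1 apart from the other two.

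Trp53 itself (ENSMUSG00000059552, chromosome 11, 69580359 to 69591873 of GRCm38) was among the lower members by level. It read 9.65, 7.54 and 8.20 CPM in regular libraries 1 to 3, and from 13.9 to 16.0 CPM with a median of 14.5 in the deficient ones. The groups did not overlap. The deficient libraries lay closer together than the regular ones, but Trp53 had only 56, 47 and 53 counts in regular libraries 1 to 3. In the deficient libraries Trp53 had 100 to 208 counts, so counting noise was smaller there. The log2 fold change was 0.73 (SE 0.13). Per kb of annotated exon, Trp53 stood at 2.09 CPM in regular and 3.68 CPM in deficient cells, the 29th and 33rd of the 35 members. Ccng1 was the most abundant member on that scale in both groups (148 and 408 CPM per kb), followed by Rps27l (93.9 and 239.6 CPM per kb).

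All 4 members of the feedback branch, genes that p53 raises and that restrain it, were higher, beside 29.4% of all genes tested. Their median log2 fold change was 0.82. Mdm2 (ENSMUSG00000020184, chromosome 10, 117688875 to 117710758), the ubiquitin ligase of p53, read 102, 102 and 95.2 CPM in the regular libraries. In the deficient libraries it ran from 178 to 285 CPM with a median of 234. The lowest deficient value was library 1, the highest were libraries 5 and 6, and the groups were well apart. The log2 fold change of Mdm2 was 1.16 (SE 0.127). Ccng1 (ENSMUSG00000020326, chromosome 11, 40748552 to 40755311), which encodes cyclin G1, a partner of the phosphatase PP2A that acts on MDM2, read 558, 509 and 497 CPM in regular libraries. In deficient ones it ran from 1076 to 1656 CPM with a median of 1439. Its log2 fold change of 1.37 (SE 0.114) was the highest of the branch, and library 1 was again the lowest deficient one. Mdm4, the partner that masks p53's activation domain, rose from 349.6 ± 13.7 CPM (SD, n = 3) to 519 ± 38.7 CPM (SD, n = 7), a log2 fold change of 0.49. Ppm1d, the phosphatase WIP1 that switches off damage signalling, rose least, by 0.29 (SE 0.101). Its call was lost without deficient libraries 5 to 7 (0.26), within batch 1 (0.24) and without regular library 2 or 3.

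The 4 arrest genes were higher as well, beside 29.4% of all genes tested, with a median log2 fold change of 0.87. Cdkn1a (ENSMUSG00000023067, chromosome 17, 29090976 to 29100727), which encodes the CDK inhibitor p21, read 14.7, 17.6 and 11.6 CPM in the regular libraries. The deficient libraries ran from 53.9 to 80.1 CPM with a median of 68.8. No library came near the other group, and the log2 fold change was 2.11 (SE 0.155), a 4.32-fold difference. Plk2, a polo-like kinase, read 128, 142 and 120.4 CPM in regular and 288 to 344 CPM, with a median of 309.8, in deficient libraries. It had a log2 fold change of 1.17 (SE 0.0708), and its deficient libraries were tightly grouped, with a coefficient of variation of 6.13%. Gadd45a, a growth arrest and repair factor, and Btg2, an antiproliferative adaptor of mRNA decay, rose by 0.57 and 0.52. Without deficient libraries 5 to 7 the values were 0.37 for Gadd45a and 0.29 for Btg2, and within batch 2 that of Btg2 was 0.84. Exons of Cdkn1a and Gadd45a overlap annotated genes on the other strand over 273 and 337 bases. Those of Rrm2b, Ei24 and Tigar, members of other branches, do so over 734, 324 and 122 bases. The strand setting of the counting is not given in the sources used here.

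**Figure D2:**
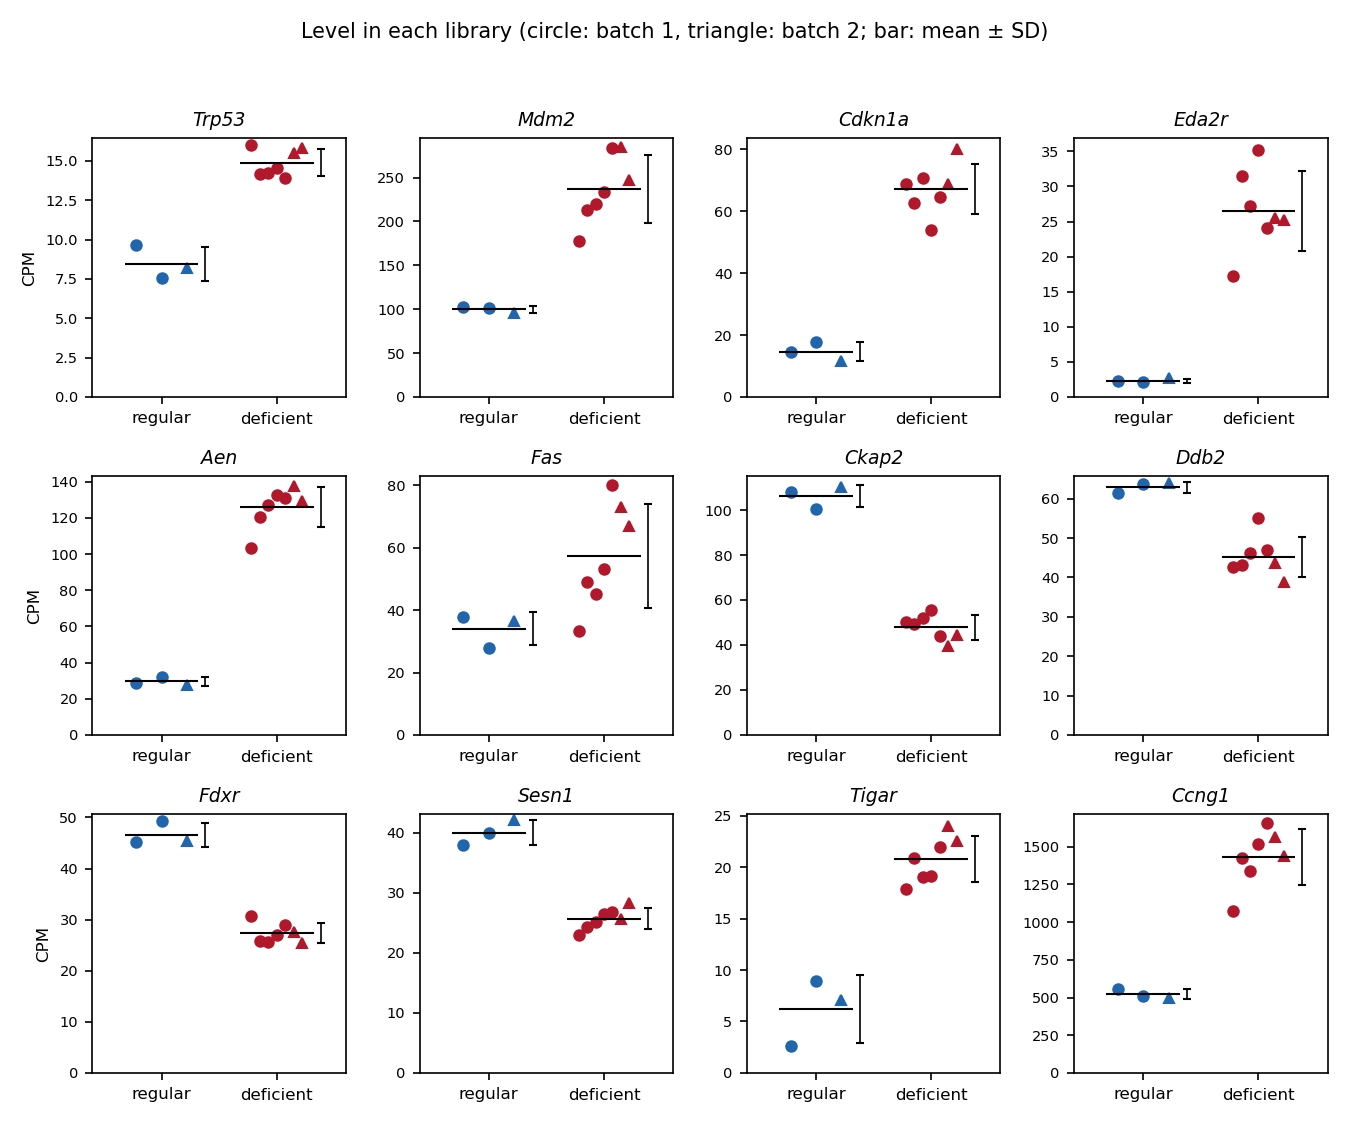
Each point is the CPM of a gene in 1 library (circles batch 1, triangles batch 2), with the mean and SD of the 3 regular and 7 deficient libraries. Cdkn1a, Eda2r, Aen and Ccng1 show a wide gap between groups, Fas overlaps, and Ckap2, Ddb2, Fdxr and Sesn1 lie lower in the deficient libraries.

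The 3 members with roles in mitosis did not move one way. Ckap2 (ENSMUSG00000037725, chromosome 8, 22168160 to 22185819), a spindle protein, read 108, 101 and 110.3 CPM in the regular libraries. It ran from 39.6 to 55.4 CPM with a median of 49.1 in the deficient ones, below every regular library. The log2 fold change was -1.25 (SE 0.0800), the lowest of all members. Psrc1, a microtubule-binding protein, read 148, 147 and 135 CPM in regular and 248 to 330.4 CPM, with a median of 318, in deficient libraries. It rose by 1.01 (SE 0.0817). Gtse1, a protein of the G2 phase that moves p53 out of the nucleus, rose from 19.7 ± 2.77 CPM (SD, n = 3) to 39.8 ± 2.92 CPM (SD, n = 7). Gtse1 and Ckap2 moved in opposite directions, and both carry a pair of p53 decamers near the start.

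In the repair branch, 4 genes were higher and 1 lower, beside 29.4% and 28.6% of all genes tested. The median log2 fold change was 0.55, the smallest of the branches with more than 1 gene. Rrm2b, the p53-inducible subunit of ribonucleotide reductase that supplies nucleotides for repair, read 29.3, 28.7 and 32 CPM in regular libraries. It ran from 56.5 to 88.3 CPM with a median of 74.1 in deficient ones. Its log2 fold change was 1.22 (SE 0.108), and the groups did not overlap. Polk, a polymerase that copies past lesions, read 77.9, 82.2 and 78.0 CPM in regular libraries. In the deficient libraries Polk ran from 96 to 182 CPM with a median of 132, and libraries 5, 6 and 7 were the 3 highest. Polk rose by 0.72 (SE 0.172), by 0.47 without those 3 libraries, and its call was lost within batch 1 at 0.61. Xpc and Ercc5, which recognise and cut damaged strands in nucleotide excision repair, rose by 0.55 and 0.54. Ddb2, which finds ultraviolet lesions for the same pathway, read 61.4, 63.6 and 63.9 CPM in regular libraries and 38.8 to 55.1 CPM, with a median of 43.8, in deficient ones. Every deficient library lay below the regular ones, and Ddb2 fell by 0.57 (SE 0.0783). Its exons overlap those of Acp2 on the other strand over 652 of 2736 bases. Acp2 itself had a log2 fold change of -0.22 (adjusted p = 0.0730, edgeR), at 23.1 CPM in regular and 21 CPM in deficient cells.

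The death branch had the highest median, 1.29, with 9 of 10 genes higher and 0 lower, beside 29.4% and 28.6% of all genes tested. The order of the branches depends on which members were placed in each, and is a description. Eda2r (ENSMUSG00000034457, X chromosome, 97333840 to 97377216), a receptor of the TNF receptor family, read 2.24, 2.08 and 2.63 CPM in the regular libraries. The deficient libraries ran from 17.3 to 35.2 CPM with a median of 25.5. Its log2 fold change of 3.42 (SE 0.252), a 10.7-fold difference, was the largest of all members, and was 3.52 among libraries without Xist RNA. Aen, a nuclease that cuts DNA in dying cells, read 29.0, 32.2 and 27.7 CPM in regular and 104 to 137 CPM, with a median of 129, in deficient libraries. It rose by 2.00 (SE 0.0906). Phlda3, which keeps the survival kinase AKT off the membrane, followed with a rise of 1.95, from 14.7 ± 2.05 CPM (SD, n = 3) to 59.9 ± 8.22 CPM (SD, n = 7).

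Smaller rises in the death branch were those of Zmat3, an RNA-binding protein, at 1.46, Pidd1, a scaffold for caspase-2, at 1.35, and Perp, a membrane protein of the p53 death pathway, at 1.23. Ei24, a protein of the endoplasmic reticulum, rose by 1.13, Trp53inp1, a stress protein that promotes p53 activity, by 0.81, and Apaf1, the core of the apoptosome, by 0.57. Without deficient libraries 5 to 7 the value of Perp was 0.79. Within batch 2 the values were 1.93 for Perp, 2.20 for Pidd1 and 1.22 for Trp53inp1. Fas, the death receptor, was the only tested member that missed the threshold. It read 37.8, 27.9 and 36.7 CPM in regular libraries and 33.3, 49.1, 45.1, 53.1, 80.2, 73.0 and 66.9 CPM in deficient libraries 1 to 7. The groups overlapped through deficient library 1, and the log2 fold change was 0.67 (SE 0.261, adjusted p = 0.0553, edgeR). Over the alternatives the value of Fas ran from 0.37 to 0.88. It was 0.37 without deficient libraries 5 to 7, where B cell and CD8 markers were highest, and the part of those cells was not tested. Fas passed without regular library 1 (0.86), deficient library 1 (0.75) or deficient library 5 (0.54). Of the death genes, Fas also had the widest spread in the deficient group, with a coefficient of variation of 29.2%.

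Of the 8 members with roles in survival and metabolism, 6 were tested. Among these, 4 were higher and 2 lower, beside 29.4% and 28.6% of all genes tested. Tigar, a phosphatase that diverts sugar from glycolysis, read 2.59, 8.98 and 7.12 CPM in the regular libraries. Regular library 1 stood apart, while the deficient libraries ran from 17.8 to 24.0 CPM with a median of 20.8. The log2 fold change of Tigar was 1.66 (SE 0.232), and 1.33 without regular library 1 and 2.11 without regular library 2. Rps27l, a ribosomal protein paralogue that p53 induces, read 79.1, 76.6 and 74.1 CPM in regular and 154 to 213 CPM, with a median of 205, in deficient libraries. It rose by 1.26 (SE 0.0915), and 11.2% of its 50-base stretches occur in other annotated genes on either strand. That share was 17.8% for Ddb2, 15.6% for Gadd45a, 10.7% for Rrm2b and 8.49% for Cdkn1a, and lower for the other members. Triap1, a small mitochondrial survival factor, rose by 1.17, and Ephx1, an epoxide hydrolase, by 0.60.

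Fdxr and Sesn1 were lower. Fdxr (ENSMUSG00000018861, chromosome 11, 115268024 to 115277050), a mitochondrial reductase for iron-sulfur clusters and steroid synthesis, read 45.2, 49.4 and 45.3 CPM in the regular libraries. In the deficient libraries it ran from 25.4 to 30.8 CPM with a median of 27.0, and it fell by 0.86 (SE 0.0829). Sesn1, a sestrin that restrains the growth kinase complex mTORC1, read 37.9, 39.9 and 42.1 CPM in regular and 22.9 to 28.4 CPM, with a median of 25.7, in deficient libraries. It fell by 0.72 (SE 0.0769). Its relative Sesn2, outside the member list, rose by 1.16. The 4 members that fell were lower within batch 1 and within batch 2, where the values were -1.15 and -1.46 for Ckap2, -0.51 and -0.68 for Ddb2, -0.86 and -0.83 for Fdxr, and -0.73 and -0.71 for Sesn1. Gdf15, a stress cytokine, and Dram1, a regulator of autophagy, were too low for the test. Gdf15 had 1 count in the regular group and 32 in the deficient group, a ratio of 7.36 per total count (95% counting interval 1.23 to 299.8). Dram1 had 2 and 42 counts, a ratio of 4.83 (1.26 to 41.2). The intervals cover counting error only.

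**Figure D3:**
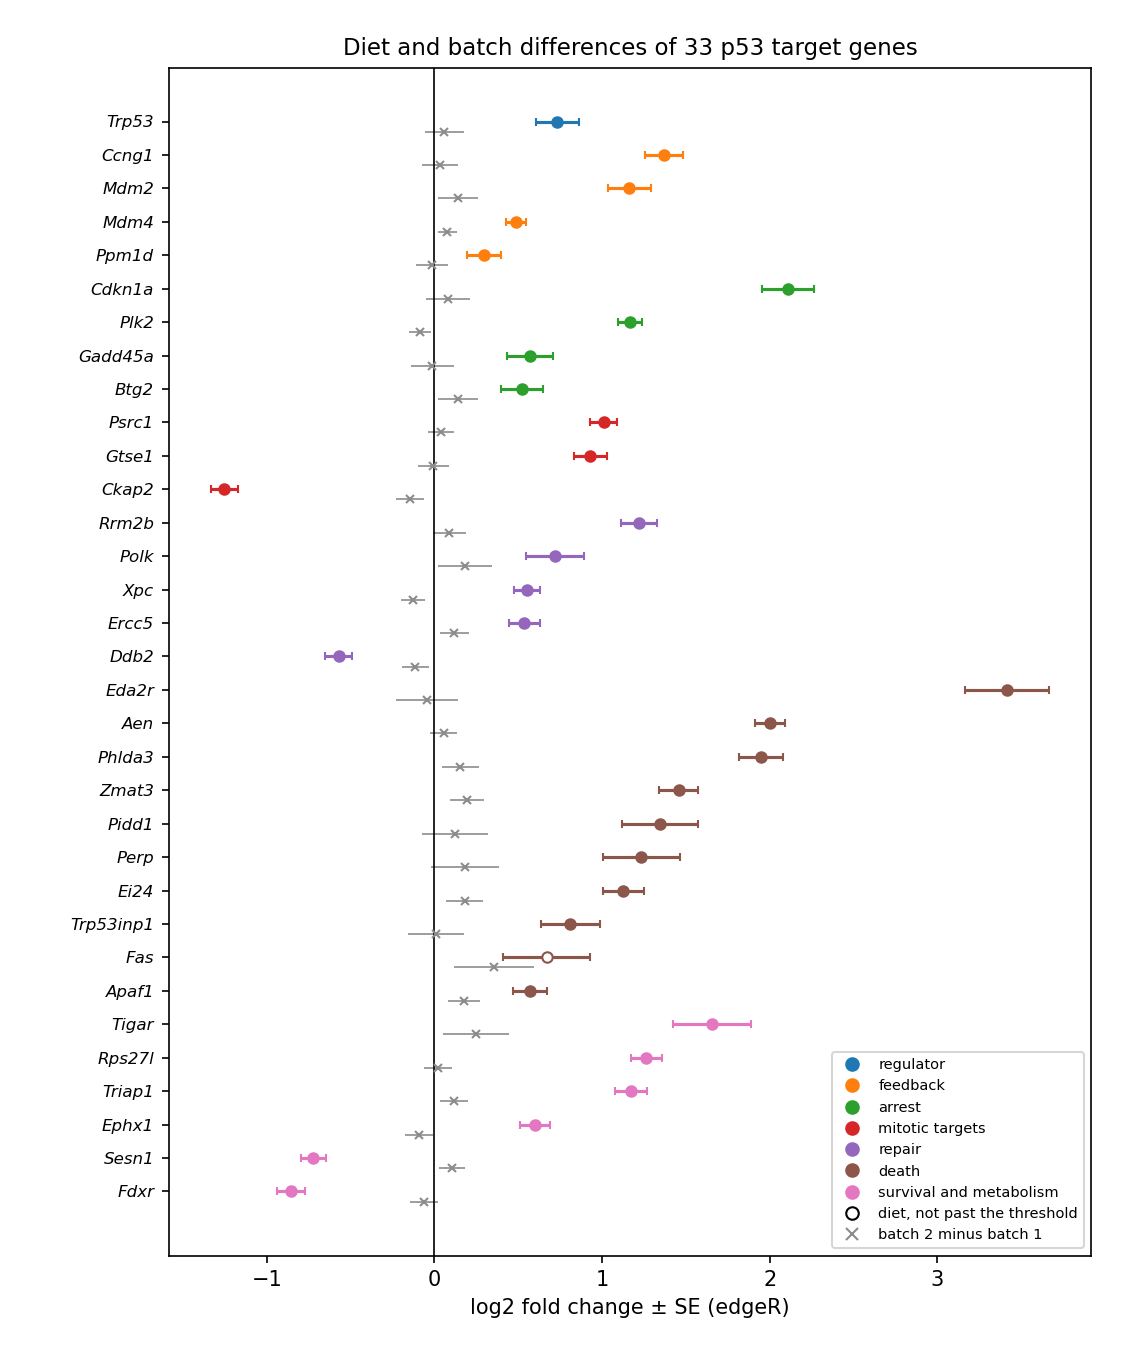
Points give the log2 fold change of each tested member between diets with its SE (deficient minus regular, coloured by branch, open where not past the threshold), and grey crosses the difference between batches in the same fit. Diet values run from -1.25 for Ckap2 to 3.42 for Eda2r, while batch values stay between -0.15 and 0.35.

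The batch term was not used in choosing the members, but it was fitted with diet on the same libraries the members were chosen with. Nothing is therefore read from the member count against the background. Batch 2 minus batch 1 gave log2 values between -0.15 (Ckap2) and 0.35 (Fas) for the 33 tested members, and 0 of them passed at an adjusted p below 0.05 or at an unadjusted p below 0.05, beside 7.58% of all genes at the latter. Over all genes 0 passed the adjusted threshold (0.0%) by edgeR, DESeq2 and limma-voom, with 1038, 915 and 1319 at an unadjusted p below 0.05. The product of diet and batch asked whether the diet difference itself differed between batches. Again 0 of 34 members tested and 0 of 14431 genes passed with edgeR (0.0%; 600 genes at an unadjusted p below 0.05), and with DESeq2 and limma-voom (294 and 384 genes at an unadjusted p below 0.05). At an unadjusted p below 0.05 stood 3 members, beside 4.16% of all genes. They were Pidd1 (1.19, SE 0.375), Perp (0.98, SE 0.387) and Cdkn1a (0.72, SE 0.261), all with the larger difference in batch 2 and each with an adjusted p of 0.950 (edgeR). Without deficient library 5, Perp passed at 1.14 (adjusted p = 0.0189, edgeR), as did 167 genes in all, and 692 genes then passed the batch test, none of them members. Without that library, 10 of 33 members stood at an unadjusted p below 0.05 in the batch test, beside 2581 of 13077 genes (edgeR). In the interaction test, members and genes at that threshold were likewise more numerous than with all libraries. The one regular library of batch 2 bears on each of these values.

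Across libraries, the median position of the 33 members against the regular mean was between 0.84 and 1.2 log2 units in the 7 deficient libraries and between -0.05 and 0.03 in the 3 regular ones. Library 1 was the lowest deficient library and library 5 the highest. The death genes ran from 1.08 in deficient library 1 to 1.68 in library 6, and the repair genes from 0.28 in library 1 to 0.85 in library 5. For the arrest genes the range was 0.80 in library 2 to 1.12 in library 5. Of the death, arrest, feedback and repair branches, death had the highest and repair the lowest median in each of the 7 deficient libraries. These medians share libraries and scaling and are given as a description.

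Other genes of the pathway come from lists drawn up from knowledge of the pathway, with some of their values known from earlier results. Of 30 further p53 targets 28 were tested, and 13 were higher and 6 lower, with a median log2 fold change of 0.24. Shares were 46.4% higher and 21.4% lower, beside 29.4% and 28.6% over all genes. Bax, which opens the mitochondrial membrane in apoptosis, rose from 28.7 ± 1.28 to 105 ± 10.2 CPM (SD, n = 3 and 7; log2 1.79, adjusted p = 1.16e-10, edgeR). Bbc3, which encodes the BH3-only protein PUMA, rose by 1.64 (adjusted p = 2.87e-09, edgeR), and Sesn2 by 1.16 (adjusted p = 1.08e-07, edgeR). Cyfip2, an actin regulator, fell by 0.73 (adjusted p = 1.82e-07, edgeR).

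Upstream of p53, 18 of 19 listed regulators were tested, and 4 were higher (22.2%) and 7 lower (38.9%), with a median of -0.13. Over all genes tested the shares were 29.4% and 28.6%, so the list stood near the background. Cdkn2a, the locus of the MDM2 inhibitor ARF, was too low for the test, at 4 counts in the regular and 56 in the deficient group, a ratio of 3.22 per total count (95% counting interval 1.19 to 12.2). The kinase Hipk2, which phosphorylates p53, fell from 38.5 ± 1.61 to 17.1 ± 2.39 CPM (SD, n = 3 and 7; log2 -1.25, adjusted p = 4.32e-08, edgeR). Rpl11, a ribosomal protein that binds MDM2, fell by 0.68, Mdc1, a scaffold at DNA breaks, by 0.68, and Usp7, which removes ubiquitin from MDM2 and p53, by 0.33 (adjusted p = 8.62e-09, 0.000100 and 0.000126, edgeR).

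In general, p21 acts in part through the DREAM complex, which represses genes of cell division. Whether p21 or DREAM had a part in the values below was not tested. Of 20 genes listed as repressed through DREAM, all tested, 19 were lower and 0 higher, with a median of -1.15. Over all genes tested 28.6% were lower and 29.4% higher. The mitotic genes Kif23, Cdc25c, Cenpa and Ube2c fell by 1.93, 1.92, 1.52 and 1.47 (adjusted p = 1.76e-08, 6.55e-09, 2.46e-09 and 1.15e-06, edgeR). Within the deficient group these genes summed to 2015 to 2440.4 CPM in libraries 1 to 4 and 1529 to 1636 CPM in libraries 5 to 7, all below the regular range of 3555 to 3691 CPM. Among 7 other CDK inhibitors and relatives of p53, 5 were tested, with 1 higher and 2 lower, too few to set apart from the 29.4% and 28.6% of all genes. Cdkn1b, which encodes the CDK inhibitor p27, fell from 208 ± 17.3 to 113 ± 7.66 CPM (SD, n = 3 and 7; log2 -0.97, adjusted p = 2.27e-08, edgeR), opposite in direction to Cdkn1a. Cdkn2d fell by 0.61 (adjusted p = 0.000361, edgeR). Cdkn1c rose by 1.18 (adjusted p = 0.00286, edgeR), from 1.04 ± 0.387 to 2.58 ± 0.842 CPM (SD, n = 3 and 7) with overlapping groups, and Cdkn2b had a value of -1.13 that did not pass (adjusted p = 0.0718, edgeR). Trp63 and Trp73, the relatives of Trp53, were near 0. Trp63 had 3 counts in the regular and 8 in the deficient group, a ratio of 0.614 per total count (95% counting interval 0.147 to 3.59), and Trp73 had 0 and 10 counts.

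**Figure D4:**
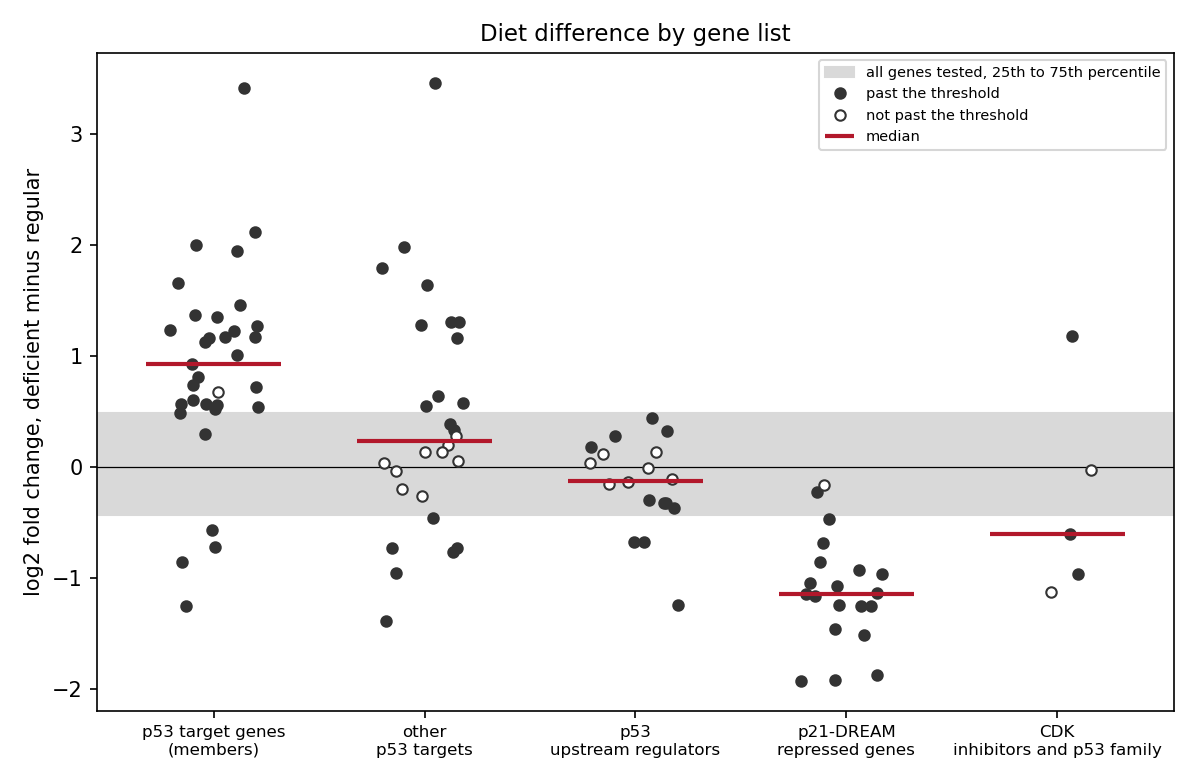
Each point is the log2 fold change (deficient minus regular) of a tested gene in the named list, filled where past the threshold, with the list's median as a bar and the band between the quartiles of all genes tested (-0.43 to 0.49). The median is 0.93 for the p53 target genes, 0.24 for other p53 targets, -0.13 for upstream regulators and -1.15 for the genes repressed through DREAM.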

How the data were processed

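RNA of TH2 cells was made into 10 libraries with a stranded total RNA kit that depletes globin, per the labels' protocols. The authors deposited unnormalized counts of reads for each Ensembl ID in one table. The submitters' processing notes name STAR 2.7.10a, HTSeq 0.13.5 and GRCm38, with annotation release and strand setting not given in the sources used here. IDs were matched to GENCODE M21 (49326 of 49671, the rest holding 0.0226% of counts). Totals ran from 5800698 to 13433276 counts, and the shallower regular libraries limit the precision of low genes. Replicate pairs differed by more than sampling noise. The chi-square per gene was 2.82 to 5.22 between regular libraries and 6.01 to 49.9 between deficient ones. This measure grows with depth, and the deficient libraries were deeper.

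Counts were filtered with filterByExpr (minimum count 10), scaled by TMM and fitted in edgeR 4.0.16 (R 4.3.3) with diet and batch, by the robust quasi-likelihood test with Benjamini-Hochberg adjustment over 13699 genes. Limma 3.58.1 and DESeq2 1.42.0 gave alternatives. The members and lists were chosen with earlier results of these data known. All members are named. Trp53, Mdm2, Cdkn1a, the 2 members of largest fold change in each branch and all that fell have fuller values. These are each regular library's level and the range and median of the deficient ones. Fas, which was chosen after its values were seen, has the value of every library. Of each of the 4 other pathway lists, the 4 genes of smallest p are named, though that rule covered the 4 marker lists too. Marker genes named here were chosen after their values were seen. Groups of libraries with and without Xist RNA, and deficient libraries 5 to 7, were known from earlier results. CPM uses plain library totals. Fold changes come from the fit with TMM scaling and the batch term, so they differ somewhat from ratios of the CPM means.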

Additional observations from a re-analysis of the deposited data

How the results depend on the processing

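Across 23 alternative settings, 743 of 759 member values kept their direction and side of the threshold, 7 lost a call, 9 gained one and 0 reversed, and 30 of 33 members were the same in every setting. The exceptions were Ppm1d (6 settings), Polk (batch 1 alone) and Fas (9 settings gained). Leaving out each library in turn gave 27 to 29 members higher and 4 lower, 12 to 13 and 5 to 6 of the other p53 targets, 1 to 4 and 7 of the upstream regulators, 18 to 19 lower genes repressed through DREAM, 1 higher and 2 to 3 lower CDK inhibitors, and 3432 to 4107 genes higher and 3341 to 3988 lower in all. The upstream regulators called higher were 1 without regular library 2 and 2 at an adjusted p below 0.01. The CDK inhibitors called higher were 0 within batch 2 and 0 with a minimum count of 50. The batch test called 183 genes without the count filter, and from 0 to 692 with a library left out (692 without deficient library 5). The interaction called 4 genes without the filter, and from 0 to 167 with a library left out. The cause of these changes was not tested. Omitting the filter moved the median of all genes by 0.18, and scaling by total counts by 0.09. Thinning to the shallowest library, chosen after the data were seen, gave 27 members higher and 4 lower. Of all genes called with thinning, 50.5% were higher. No paired analysis was possible because the labels carry no replicate numbers.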
